A study of Mus musculus with 6 samples.

Results

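Prostaglandin E2 is a lipid signal made from arachidonic acid, a fatty acid held in cell membranes. The cytosolic phospholipase encoded by Pla2g4a frees arachidonic acid, the cyclooxygenases encoded by Ptgs1 and Ptgs2 turn it into prostaglandin H2, and the synthases encoded by Ptges, Ptges2 and Ptges3 turn that into prostaglandin E2. Hpgd encodes the dehydrogenase that starts its breakdown, and Ptger2, Ptger3 and Ptger4 encode the cell surface receptors EP2, EP3 and EP4. In skin, Ptgs1 is known as the steady form and Ptgs2 as the form that keratinocytes switch on after wounding, ultraviolet light or growth factor signals. These 10 genes were chosen by their roles, out of 30386 genes in the table. Ptgs2 was in addition selected on its measured rise in p63alphaKO epidermis, so its difference between the genotypes is described here without a test.

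Epidermis was taken from dorsal skin of mouse embryos at E18.5 and separated from the dermis with the enzyme Dispase. There were 3 libraries of the wild type (WT) and 3 of the genotype labelled p63alphaKO. That label names the alpha forms of p63, the transcription factor of stratified epithelia encoded by Trp63. The sources used here do not say how the allele was made, which strain carried it, or whether each replicate was an embryo of its own. The p-values therefore measure only the spread between these libraries, which may be technical. mRNA was counted from its 3′ ends, and levels are given as CPM, a gene's reads scaled to a common library total. A library held between 2566406 and 4478549 reads, and 3 reads, taken as the limit that a count of 0 allows, corresponded to between 0.670 and 1.17 CPM. Trp63 itself was at 63.9, 71.7 and 87.2 CPM in the WT libraries and at 143, 146 and 136 CPM in the p63alphaKO libraries. Since that count is per gene, it is no check on the alpha forms.

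The keratinocyte markers summed to between 115157 and 122012 CPM in WT and between 112541 and 119781 CPM in p63alphaKO, so the tissue label matched its markers. That sum does not show Krt15, named after its values were seen, the 1 gene of these 10 with an adjusted p under 0.05. Its mean was 1347 CPM in WT and 361 CPM in p63alphaKO (log2 fold change -1.80, adjusted p = 0.00164 by limma). Summed markers of several other cells differed between the genotypes. The 10 fibroblast markers summed to between 2054 and 4680 CPM in WT and between 259 and 573 CPM in p63alphaKO. The skeletal muscle markers went from between 450 and 2903 CPM to between 61.6 and 110 CPM, and the mast cell markers from between 44.0 and 138 CPM to between 6.26 and 15.5 CPM. In bulk samples, fewer cells of a type and less RNA per cell cannot be told apart. Whether the separation from the dermis left the same cells in each library was not tested.

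The sequences before the cyclooxygenase genes are shown because Ptgs2 and Ptgs1 encode the same enzyme activity and had different patterns in these libraries. All 10 genes were found in RefSeq's promoter windows, which run from 250 bases before to 50 bases after an annotated start on GRCm38.p6, in 11 windows since Pla2g4a has an additional start. Capitals mark matches, on either strand, to any of 6 motifs chosen after the Ptgs2 sequence was seen. These were the C/EBP palindrome TTGCGCAA, the E-box CACGTG, the cAMP response element core ACGTCA, the Sp1 box GGGCGG, the AP-1 site TGAGTCA and the TATA box TATAAA. The lines give the 250 bases before the start of each gene, on the plus strand, at chr1:150099781-150100030 for Ptgs2 and chr2:36230176-36230425 for Ptgs1.
Ptgs2: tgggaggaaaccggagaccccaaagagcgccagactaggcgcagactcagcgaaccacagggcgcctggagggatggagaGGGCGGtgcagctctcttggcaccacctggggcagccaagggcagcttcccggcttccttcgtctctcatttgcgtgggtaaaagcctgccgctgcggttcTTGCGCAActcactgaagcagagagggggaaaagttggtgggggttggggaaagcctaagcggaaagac
Ptgs1: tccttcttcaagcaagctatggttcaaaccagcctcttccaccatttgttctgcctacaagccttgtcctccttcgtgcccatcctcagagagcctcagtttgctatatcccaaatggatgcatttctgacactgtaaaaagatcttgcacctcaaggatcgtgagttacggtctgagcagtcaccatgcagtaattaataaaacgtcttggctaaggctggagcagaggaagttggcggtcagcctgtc

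Because the motifs were chosen with the Ptgs2 sequence in view, its matches may follow from that choice, and nothing is read from their rarity. The Ptgs2 window held the C/EBP palindrome, which 0.183% of all 32851 windows of the same length held. It was the 1 window among the 11 of the prostaglandin E2 genes with that match, and also the 1 with the cAMP response element core, found in 7.51% of all windows. The Ptgs1 window held none of the 6 motifs. Just inside the annotated start of Ptgs2, at chr1:150100033-150100062, lay the cAMP response element core and the E-box, which share 2 bases there and are in capitals in the next line.
Ptgs2, bases 3 to 32 from the start: agtcaccactACGTCACGTGgagtccgctt
E-boxes of this form were in 7.15% of all windows, and the Ptges2 window also had one. The Sp1 box was in 35.7% of all windows and in 6 of the 11, and the Ptges3 and Ptger4 windows had 4 each. The AP-1 site, in 5.20% of all windows, was in none of the 11. The TATA box was in 13.6% of all windows and in 2 of the 11, those of Hpgd and of the additional Pla2g4a start. A match says only that the letters are there. Positions are given from the annotated start, and the base where transcription begins was not measured by these 3′ counts.

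Ptgs2 (ENSMUSG00000032487, chromosome 1, 150100031 to 150108227, plus strand, mm10) was low in WT epidermis and several times higher in p63alphaKO. Its level was 9.35, 9.15 and 4.72 CPM in WT replicates 1, 2 and 3 and 72.3, 52.4 and 36.4 CPM in p63alphaKO replicates 1, 2 and 3. The groups did not overlap, and the lowest p63alphaKO library lay well above the highest WT library. These levels rested on 24, 41 and 15 reads in WT and on 256, 180 and 122 reads in p63alphaKO. The means were 7.74 ± 2.62 CPM and 53.7 ± 18.0 CPM (SD, n = 3 each), a ratio of 6.94. As log2(CPM + 1), a scale on which low genes appear to change less than they did, the difference was 2.64. It was the third highest among 7464 tested genes, those averaging 10 CPM or more, and Ptgs2 passed that minimum only through the p63alphaKO libraries. A difference of 1 or more was found for 1.49% of the tested genes and one of 2 or more for 0.0938%. Groups without overlap and higher in p63alphaKO were found for 7.6% and calls by limma in that direction for 0.469%, and nothing is read from these shares for Ptgs2. The difference lay between 2.18 and 2.89 in 15 other settings of the analysis.

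The p63alphaKO libraries also differed among themselves in Ptgs2. Replicate 1 had 72.3 CPM and replicate 3 had 36.4 CPM, and WT replicate 3 was the lowest of all libraries. Leaving out WT replicate 3 gave a log2 difference of 2.36, and leaving out p63alphaKO replicate 3 gave 2.89. The lists of fibroblast, muscle, erythroid, endothelial and mast cell markers had lower summed levels in p63alphaKO. For fibroblasts, muscle, erythroid cells and endothelium all markers with a row had a lower mean in p63alphaKO. Of 8 mast cell markers, 6 had a lower mean, 0 a higher one, and 2 were at 0 in all libraries. The T cell markers summed to between 14.2 and 26.9 CPM in WT and between 1.49 and 8.47 CPM in p63alphaKO. Of these 6 markers, 3 had a lower mean and 3 were at 0 in all libraries. Macrophage and Langerhans cell markers summed to between 29.03 and 52.3 CPM in WT and between 21.2 and 29.1 CPM in p63alphaKO, with a lower mean in 7 of 10 and a higher mean in Cd68, C1qb and Lyz2. The melanocyte markers moved in the same direction as Ptgs2, from between 201 and 332 CPM to between 343 and 481 CPM, with a higher mean in 6 of 7. Hair follicle markers overlapped, at 587 to 1163 CPM in WT and 959 to 1079 CPM in p63alphaKO. The part of any of these cell types in the Ptgs2 level was not tested.

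**Figure D1:**
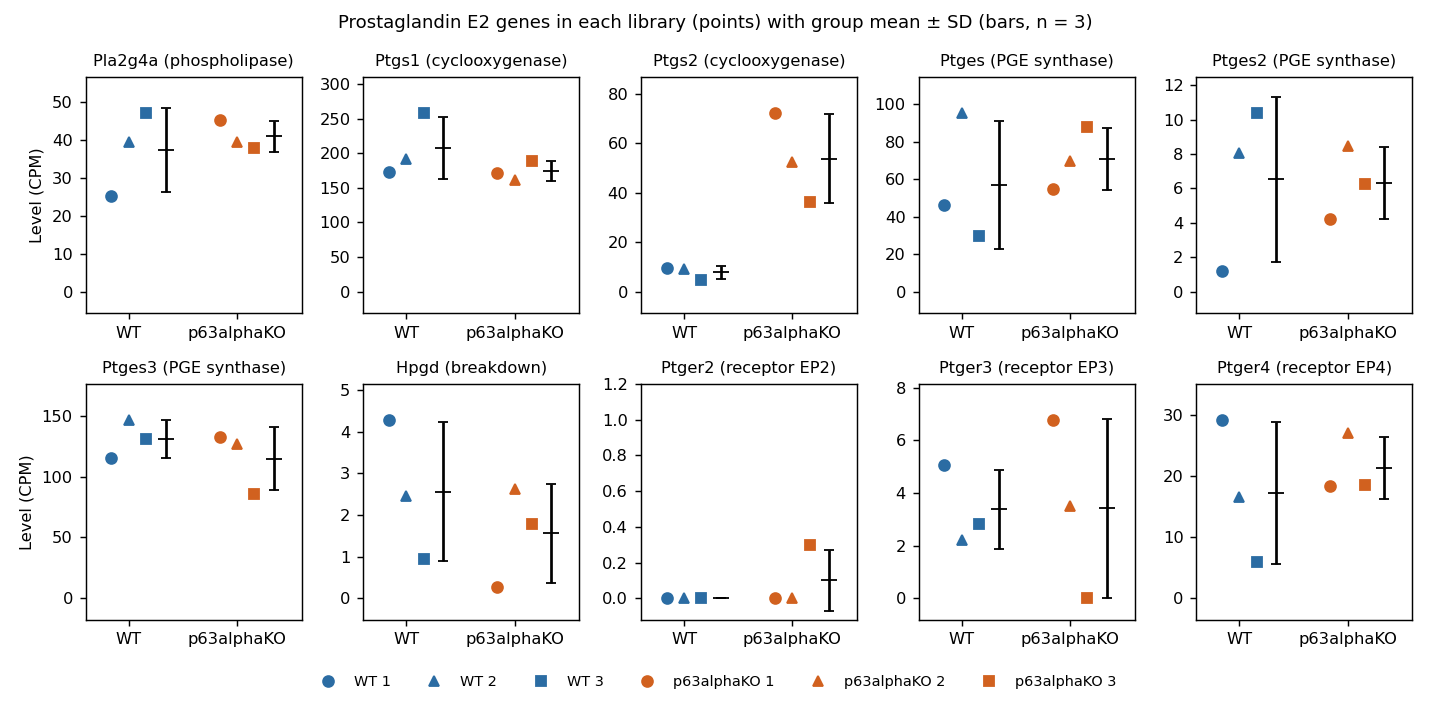
Levels in CPM (vertical axes, each including 0) of the 10 prostaglandin E2 genes in the 3 WT (blue) and 3 p63alphaKO (orange) libraries, with the group mean ± SD as black bars. The groups are apart for Ptgs2, at 4.72 to 9.35 CPM against 36.4 to 72.3 CPM, and overlap for the other 9 genes.

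None of the other prostaglandin E2 genes passed the test. Of the 9, 5 reached the minimum mean and were tested with limma, and 0 of these 5 were called at an adjusted p under 0.05, beside 1.65% of all tested genes (123 of 7464, 35 higher and 88 lower). At an unadjusted p under 0.05 the count was also 0, beside 15.6% of all tested genes, and edgeR and DESeq2 called 0 as well, beside 1.1% and 4.25%. By either of them 0 had an unadjusted p under 0.05, beside 1124 (edgeR) and 1106 (DESeq2) of the 7464 tested genes. Of the 5, 3 had positive and 2 negative log2 fold changes, while 40.2% of all tested genes had positive ones. The median of the 5 was 0.17, beside -0.085 over all tested genes. The groups overlapped for all 5, while they did not overlap for 21% of all tested genes. A missed threshold does not show that a gene is unchanged, so the 95% intervals of limma are given with each gene.

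Ptgs1 (chromosome 2, 36230426 to 36252272, plus strand), the other cyclooxygenase, had no called change. The WT libraries had 173, 191 and 258 CPM and the p63alphaKO libraries 172, 162 and 189 CPM. WT replicate 3 stood highest and the remaining libraries of both groups lay side by side. Its log2 fold change was -0.23 (SE 0.18, adjusted p = 0.604 by limma), with an interval from -0.63 to 0.16. It ran from -0.35 without WT replicate 1 to -0.064 without WT replicate 3.  The exons of Ptgs1 overlap those of Gm43621 on the opposite strand, and the sources used here do not say whether counting used the strand.

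Pla2g4a, which encodes the phospholipase that supplies arachidonic acid, had 25.3, 39.5 and 47.2 CPM in the WT libraries and 45.5, 39.6 and 37.9 CPM in those of p63alphaKO. All p63alphaKO values lay within the range of the WT values. The log2 fold change was 0.17 (SE 0.25, adjusted p = 0.809 by limma, interval from -0.37 to 0.71), and it turned to -0.079 without WT replicate 1. Pla2g4a (chromosome 1, 149829618 to 149961290, minus strand) is also the nearest tested gene to Ptgs2. Their bodies are 138740 bases apart and they are read in opposite directions.

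The 500000 bases on either side of the Ptgs2 start held 8 genes of the table, and 4 of them were tested. Besides Ptgs2 and Pla2g4a these were Odr4 and Tpr, the latter encoding a protein of the nuclear pore basket. Tpr averaged 264 CPM over the WT libraries and 259 CPM over those of p63alphaKO, with a log2 fold change of 0.0013 (adjusted p = 0.999 by limma). Odr4 was at 27.2 and 17.0 CPM, with a log2 fold change of -0.68 (adjusted p = 0.326 by limma). The annotated bodies of Odr4 and Tpr overlap at one end, on opposite strands. The non-coding gene Ptgs2os2, downstream of Ptgs2, had 0 reads in all 6 libraries. Ptgs2os, annotated head to head with Ptgs2 at a gap of 67 bases, was not analysed here.

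**Figure D2:**
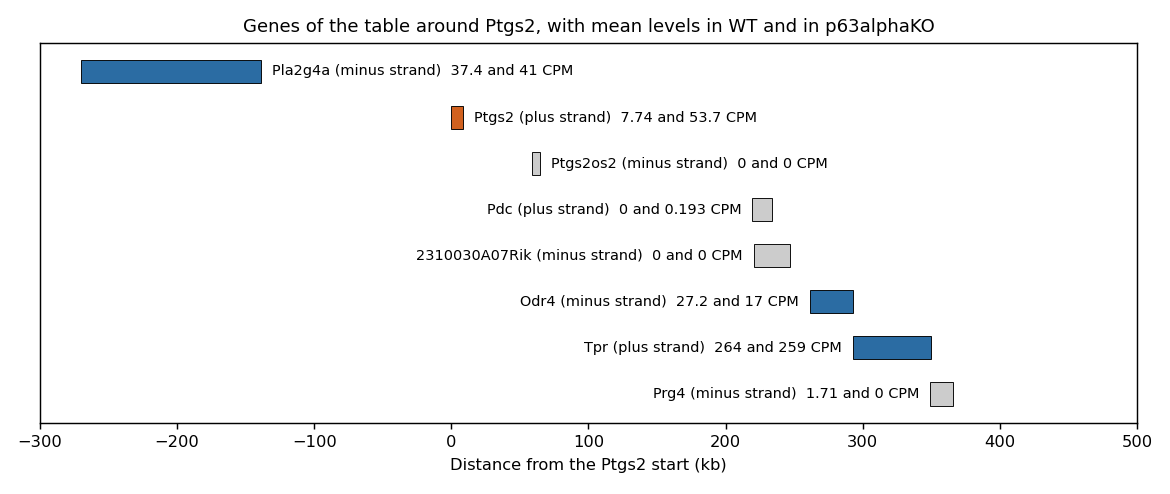
Genes of the table around Ptgs2, drawn to scale by distance from its start in kb, with the mean levels in WT and then in p63alphaKO beside each name. Ptgs2 is orange, the other tested genes are blue and genes under the minimum mean are grey. Mean levels went from 37.4 to 41.0 CPM for Pla2g4a and from 27.2 to 17.0 CPM for Odr4, and from 7.74 to 53.7 CPM for Ptgs2.

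Ptges, the inducible microsomal synthase that usually works together with Ptgs2, varied widely in WT. The WT libraries had 46.0, 95.3 and 29.6 CPM, and those of p63alphaKO 54.8, 69.9 and 88.0 CPM. WT replicate 2 was the highest and WT replicate 3 the lowest of all 6 libraries, so the WT group spanned the p63alphaKO group. The log2 fold change was 0.45 (SE 0.33, adjusted p = 0.573 by limma, interval from -0.26 to 1.16), and it ran from 0.069 without WT replicate 3 to 0.90 without WT replicate 2.

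Ptges3 encodes the cytosolic synthase, a protein better known as p23, which helps the chaperone Hsp90. Levels were 115, 147 and 131 CPM in the WT libraries and 132, 127 and 85.3 CPM in the p63alphaKO libraries. p63alphaKO replicate 3 was the low value, and the others fell in one range. Its log2 fold change was -0.21 (SE 0.20, adjusted p = 0.690 by limma, interval from -0.64 to 0.23), and it was -0.0067 without p63alphaKO replicate 3. Ptges2, a further membrane-bound synthase, was under the minimum. Its levels were 1.17, 8.04 and 10.4 CPM for WT and 4.23, 8.44 and 6.26 CPM for p63alphaKO, and the WT replicate 1 value rested on 3 reads. With the minimum lowered to 1 CPM, where 2.08% of genes were called, its log2 fold change was 0.23 (adjusted p = 0.902 by limma).

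Hpgd, the gene of prostaglandin breakdown, was near the limit of detection. The WT libraries had 4.29, 2.46 and 0.94 CPM and those of p63alphaKO 0.28, 2.62 and 1.79 CPM, from 1 to 11 reads per library. The groups overlapped, and with the lower minimum the log2 fold change was -0.49 (adjusted p = 0.778 by limma).

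Among the receptors, Ptger4, encoding EP4, was the 1 with a mean above 10 CPM. Its WT levels were 29.2, 16.5 and 5.98 CPM, and its p63alphaKO levels 18.4, 27.1 and 18.49 CPM. The WT libraries held both the highest and the lowest value. The log2 fold change was 0.51 (SE 0.44, adjusted p = 0.648 by limma, interval from -0.44 to 1.45), and it turned to -0.067 without WT replicate 3. Exons of Ptger4 overlap Ttc33 and Gm15937 on the opposite strand, so its value is uncertain if reads of both strands were counted together.

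Ptger3, encoding EP3, had 5.07, 2.23 and 2.83 CPM in the WT libraries against 6.78, 3.49 and 0 CPM in those of p63alphaKO. The p63alphaKO libraries thus held both its highest count, of 24 reads, and a count of 0, which allows up to 0.895 CPM. With the lower minimum its log2 fold change was -0.37 (adjusted p = 0.854 by limma), although the group means were close, at 3.38 and 3.42 CPM. Ptger2, encoding EP2, had 0 reads in 5 libraries and 1 read in p63alphaKO replicate 3. Ptger1, the gene of the remaining receptor EP1, had 4 reads in p63alphaKO replicate 1 and 0 elsewhere. Ptger4 was the only receptor gene of prostaglandin E2 with reads in every library, and its lowest count was 19.

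The 10 genes summed to 470 ± 54.4 CPM in WT and 487 ± 21.6 CPM in p63alphaKO (SD, n = 3 each), and the groups overlapped. Without Ptgs2 the sums were 462 ± 55.4 CPM and 434 ± 6.16 CPM, so the mean was higher in p63alphaKO with Ptgs2 and lower without it, and neither difference was tested. Reads here are counted from the 3′ end of each transcript and not per length, so the sums are of counts.

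**Figure D3:**
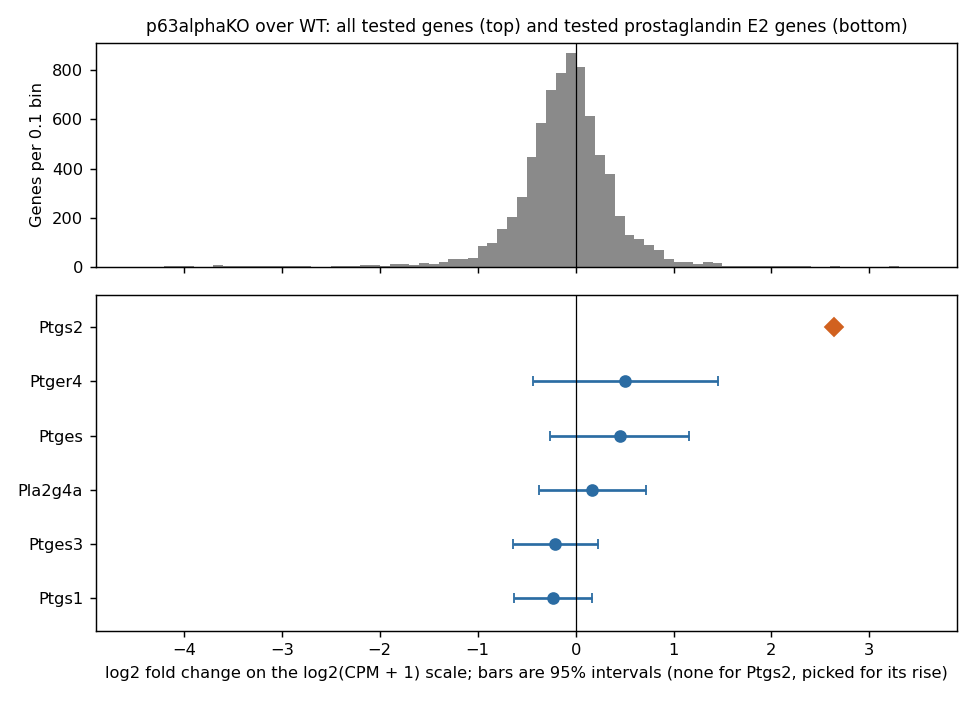
Top, the number of tested genes by log2 fold change, p63alphaKO over WT, in bins of 0.1. Bottom, the 6 tested prostaglandin E2 genes on the same axis, with 95% intervals for all but Ptgs2: the 5 intervals include 0, and Ptgs2 lies at 2.64, beyond nearly all tested genes.

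Ptgs2 mRNA is known to be short-lived, through AU-rich stretches after its coding sequence that carry the pentamer ATTTA. The longest annotated stretch after the stop codon of Ptgs2 in GENCODE is 2445 bases long and held 14 of these pentamers. That many or more were found in 3.52% of the 7245 tested genes with such a stretch of at least 100 bases, where the median was 2. The 30 bases from base 12 after the stop codon, shown for their cluster of 4 pentamers, have these in capitals.
Ptgs2, after the stop codon: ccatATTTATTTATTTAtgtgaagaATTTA
Pla2g4a had 4 pentamers in 443 bases, or 9.03 per 1000 bases, a density reached by 0.442% of the tested genes and above the 5.73 of Ptgs2. Ptgs1 and Ptges had 0, in 921 and 3106 bases. The other 6 of these genes had between 4 and 6.

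Of 12 genes for proteins known to act on Ptgs2 mRNA, 1 fell and 0 rose, beside 1.18% and 0.469% of all tested genes, and all 12 were tested. An unadjusted p under 0.05 was found for 2 of the 12, beside 15.6%, and in 3 the groups did not overlap and were lower in p63alphaKO, beside 13.4%. Their median log2 fold change was 0.044, beside -0.085 over all tested genes. The gene that fell was Celf2, whose RNA-binding protein is known to act on Ptgs2 mRNA, and its part in the Ptgs2 level was not tested. The WT libraries had 84.9, 59.4 and 62.3 CPM of Celf2 and those of p63alphaKO 40.9, 24.8 and 20.3 CPM. The groups did not overlap, and the log2 fold change was -1.28 (SE 0.27, adjusted p = 0.0271 by limma). The call ended with edgeR (adjusted p = 0.0615), without WT replicate 1 (adjusted p = 0.0659 by limma) and without p63alphaKO replicate 2 or replicate 3 (adjusted p = 0.0950 and 0.173 by limma). DESeq2 called it. The fibroblast and muscle markers, summed above, were lower in the same libraries as Celf2, and their part in its value was not tested. The other genes without overlap were Tia1 and Tial1, named after their values were seen, whose proteins bind AU-rich mRNAs and hold back their translation. Tia1 had 38.6, 33.05 and 33.06 CPM in the WT libraries against 26.8, 21.8 and 9.25 CPM in those of p63alphaKO. Its log2 fold change was -0.94 (adjusted p = 0.188 by limma), and that of Tial1 was -0.35 (adjusted p = 0.551 by limma). Zfp36, the gene of tristetraprolin, which speeds the decay of AU-rich mRNAs, had 182, 184 and 107 CPM in WT libraries against 152, 140 and 181 CPM in p63alphaKO libraries, with a log2 fold change of 0.038 (adjusted p = 0.965 by limma). Its relative Zfp36l1 had a value of 0.051 and Celf1 one of 0.30 (adjusted p = 0.923 and 0.511 by limma), and that of Celf1 was 0.18 without WT replicate 1 or p63alphaKO replicate 1. The exons of Zfp36, Zfp36l1 and Celf2 each overlap an annotated gene on the opposite strand.

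Of 16 genes for factors described at the Ptgs2 promoter, 14 were tested, 1 fell and 0 rose, beside 1.18% and 0.469% of all tested genes. An unadjusted p under 0.05 was found for 2 of the 14, beside 15.6%. Their median log2 fold change was 0.0046, with 7 positive and 7 negative. The gene that fell was Fos, encoding a subunit of the AP-1 factor. The WT libraries had 645, 723 and 615 CPM of Fos and those of p63alphaKO 457, 350 and 398 CPM, so the groups did not overlap, beside 13.4% of all tested genes in this direction, and Fos moved opposite to Ptgs2. The log2 fold change was -0.72 (SE 0.16, adjusted p = 0.0335 by limma). This call ended in 10 of 16 other settings, among them edgeR (adjusted p = 0.0876), TMM and upper quartile scaling (adjusted p = 0.0750 and 0.0838 by limma), and leaving out WT replicate 2 or p63alphaKO replicates 1, 2 or 3 (adjusted p = 0.0817, 0.0762, 0.175 and 0.165 by limma). DESeq2 called it. Its AP-1 partner Jun had 1011, 1293 and 797 CPM in WT libraries against 1333, 1105 and 1142 CPM in p63alphaKO libraries, with a log2 fold change of 0.23 (adjusted p = 0.593 by limma), which ran from 0.057 without WT replicate 3 to 0.40 without WT replicate 2. Stat3, a transcription factor of cytokine signalling, had a value of 0.43 (adjusted p = 0.351 by limma), which ran from 0.20 to 0.66 without the same libraries. Jun and Stat3 also overlap genes on the opposite strand. The palindrome in the Ptgs2 window is known to be bound by C/EBP proteins, and Cebpa, Cebpb and Cebpd had log2 fold changes of -0.12, -0.024 and 0.34, none of them called. Rela and Nfkb1, subunits of NF-kappaB, had values of 0.69 and 0.39, also without a call (adjusted p = 0.204 and 0.507 by limma). The Rela groups did not overlap, at 49.4 to 116 CPM in WT and 124 to 137 CPM in p63alphaKO. That was so in this direction, the one of Ptgs2, for 7.6% of all tested genes. These 5 genes were named after their values were seen.

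**Figure D4:**
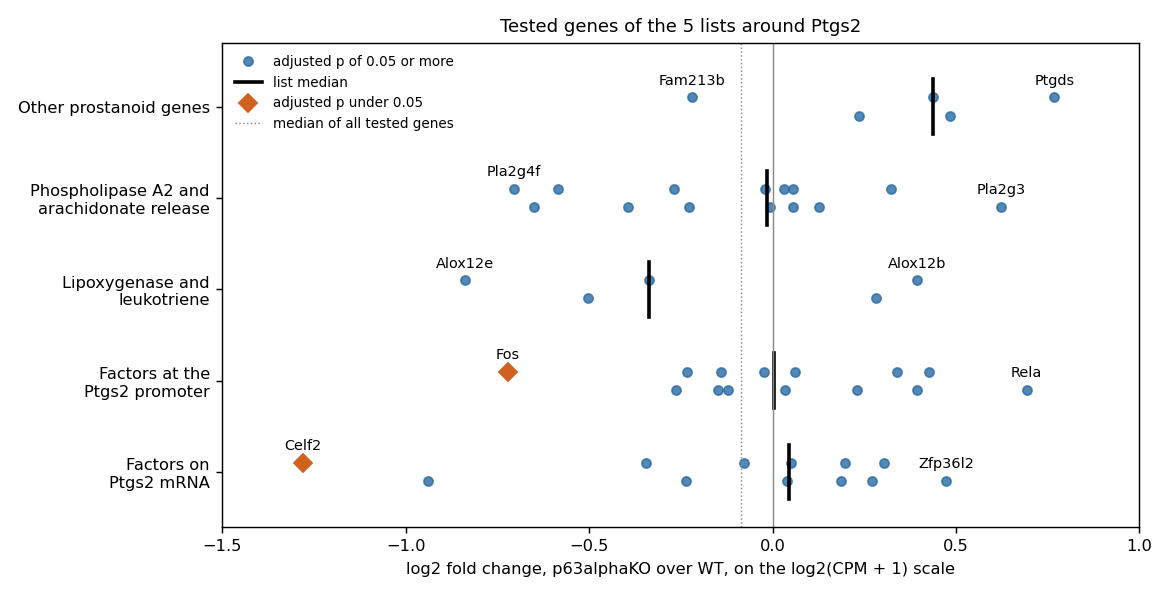
Log2 fold changes, p63alphaKO over WT, of the tested genes in 5 lists of genes around Ptgs2, with the list median as a black line and the median of all tested genes as a dotted line. Fos (-0.72) and Celf2 (-1.28) are the 2 called genes, both lower in p63alphaKO, and the lowest and highest gene of each list is named.

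Other prostanoid genes, which make, change, move or sense prostaglandins other than through the genes above, had no called change. Of 17 in the table, 5 were tested, 4 with positive values, and the median log2 fold change was 0.44. By limma 0 of the 5 were called, beside 1.65% of all tested genes, and 1 had an unadjusted p under 0.05, beside 15.6%. edgeR called 0 and DESeq2 called 1, which was Ptgds, beside 1.1% and 4.25%. By each of them 3 of the 5 had an unadjusted p under 0.05, beside 1124 (edgeR) and 1106 (DESeq2) of all 7464 tested genes. In 3 of the 5 the groups did not overlap and were higher in p63alphaKO, beside 7.6% of all tested genes. Hpgds, which encodes the hematopoietic prostaglandin D synthase, had 37.0, 55.6 and 52.3 CPM in the WT libraries against 64.4, 66.1 and 63.8 CPM in those of p63alphaKO. The groups did not overlap, and the log2 fold change was 0.44 (SE 0.21, adjusted p = 0.348 by limma), or 0.26 without WT replicate 1. Hpgds is also known from mast cells, whose markers summed to lower levels in p63alphaKO, and their part in its value was not tested. Ptgds, the other prostaglandin D synthase gene, named after its values were seen, had 23.4, 22.1 and 28.96 CPM in the WT libraries against 42.9, 60.6 and 29.8 CPM in those of p63alphaKO. Its log2 fold change was 0.77 (adjusted p = 0.185 by limma, 0.0482 by DESeq2). Ptgr1, described further below, also had groups without overlap. Its log2 fold change was 0.24 (SE 0.17, adjusted p = 0.549 by limma), with an interval from -0.12 to 0.59. Fam213b, encoding a prostamide and prostaglandin F synthase, had a value of -0.22 (adjusted p = 0.671 by limma), which ran from -0.38 without WT replicate 2 to -0.090 without WT replicate 3, and it overlaps Mmel1 on the opposite strand.

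Of the 12 untested genes of that list, Tbxas1 and Ptgdr2 were at 0 in all 6 libraries. Ptgis, which encodes prostacyclin synthase and was also named after its values were seen, had 23, 7 and 1 reads in WT and 0 in each p63alphaKO library. Endothelial markers, which summed to between 18.9 and 62.0 CPM in WT and between 3.66 and 8.44 CPM in p63alphaKO, moved with it, and their part was not tested.

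Genes of other phospholipases and of the handling of arachidonic acid and its lipids, such as Mgll, Faah, Acsl4, Lpcat3 and Mboat7, were not called either. Of 22 in the table, 14 were tested, with 6 positive and 8 negative values and a median log2 fold change of -0.014. By limma 0 were called, beside 1.65% of all tested genes, and 2 of the 14 had an unadjusted p under 0.05, beside 15.6%. edgeR and DESeq2 called 0, beside 1.1% and 4.25%. Pla2g2f, encoding a secreted phospholipase of the suprabasal epidermis, had 327, 282 and 311 CPM in the WT libraries against 299.5, 301 and 340.3 CPM in those of p63alphaKO. Its log2 fold change was 0.032 (SE 0.16, adjusted p = 0.954 by limma), with an interval from -0.30 to 0.36. Pla2g16 had a value of 0.32 and Acsl4, whose enzyme attaches arachidonic acid to coenzyme A, one of -0.23 (adjusted p = 0.445 and 0.711 by limma). Leaving out p63alphaKO replicate 1 gave -0.42 for Acsl4, and leaving out p63alphaKO replicate 3 gave -0.014.

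Lipoxygenases act on fatty acids and lipids made from them in a separate branch, to which the leukotriene genes also belong. Some lipoxygenases serve the water barrier of skin. Of 16 lipoxygenase and leukotriene genes, 5 were tested, namely 4 lipoxygenase genes and Lta4h, which encodes the leukotriene A4 hydrolase. By limma 0 were called, beside 1.65% of all tested genes, and 3 of the 5 had an unadjusted p under 0.05, beside 15.6%. edgeR and DESeq2 called 0, beside 1.1% and 4.25%. The median log2 fold change was -0.34, with 2 positive and 3 negative values. Alox12b and Aloxe3, the pair needed for the lipid barrier, had values of 0.39 and 0.28 (adjusted p = 0.297 and 0.438 by limma). Alox12, the platelet-type lipoxygenase, had 69.0, 77.9 and 88.5 CPM in the WT libraries against 66.9, 54.5 and 45.0 CPM in those of p63alphaKO, and its log2 fold change was -0.50 (adjusted p = 0.264 by limma). Its groups did not overlap, as was the case in this direction for 13.4% of all tested genes, but WT replicate 1 and p63alphaKO replicate 1 were close. The groups of Alox12e, named after its values were seen, were also lower without overlap. Its log2 fold change was -0.84 (adjusted p = 0.230 by limma). Those of Aloxe3 were higher in p63alphaKO without overlap, beside 7.6% of all tested genes.

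The 8 tested genes whose levels over the 6 libraries were most like those of Ptgs2 were found by Pearson's r of log2(CPM + 1). Since Ptgs2 splits the genotypes, such a ranking picks genes that do so too. Their direction is fixed by the choice, and no test is drawn from the ranking. Among 7458 genes compared, 92 (1.23%) had r of at least 0.9. First was Ptgr1, which encodes an enzyme that acts on prostaglandin breakdown products and leukotriene B4, with r = 0.985. The WT libraries had 136, 131 and 123 CPM of Ptgr1 and those of p63alphaKO 156, 154 and 149 CPM. Its libraries fell in the same order as those of Ptgs2 (Spearman's rho = 1), over a much smaller range, with a ratio of means of 1.18. As given above with the other prostanoid genes, Ptgr1 had no called change.

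Then came Slc16a10, encoding a transporter of aromatic amino acids, with r = 0.981, and Orm1, encoding an acute phase glycoprotein, with r = 0.978. Slc16a10 had 6.23, 6.70 and 4.72 CPM in the WT libraries against 15.8, 18.4 and 12.2 CPM in those of p63alphaKO. Orm1 was at 68.2, 72.1 and 56.7 CPM and at 116, 124 and 113 CPM. St3gal1, a sialyltransferase gene, Cecr2, which encodes a bromodomain protein of chromatin remodelling, and Tsc22d1, a TGF-beta responsive gene, had r = 0.977, 0.976 and 0.976. The last were the non-coding gene Gm20186, with r = 0.974, and the phosphatase gene Ptpn12, with r = 0.972. The ratios of the group means, p63alphaKO over WT, lay between 1.18 for Ptgr1 and 3.29 for Gm20186, all below the 6.94 of Ptgs2. Spearman's rho lay between 0.886 and 1 for the 8 genes.

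**Figure D5:**
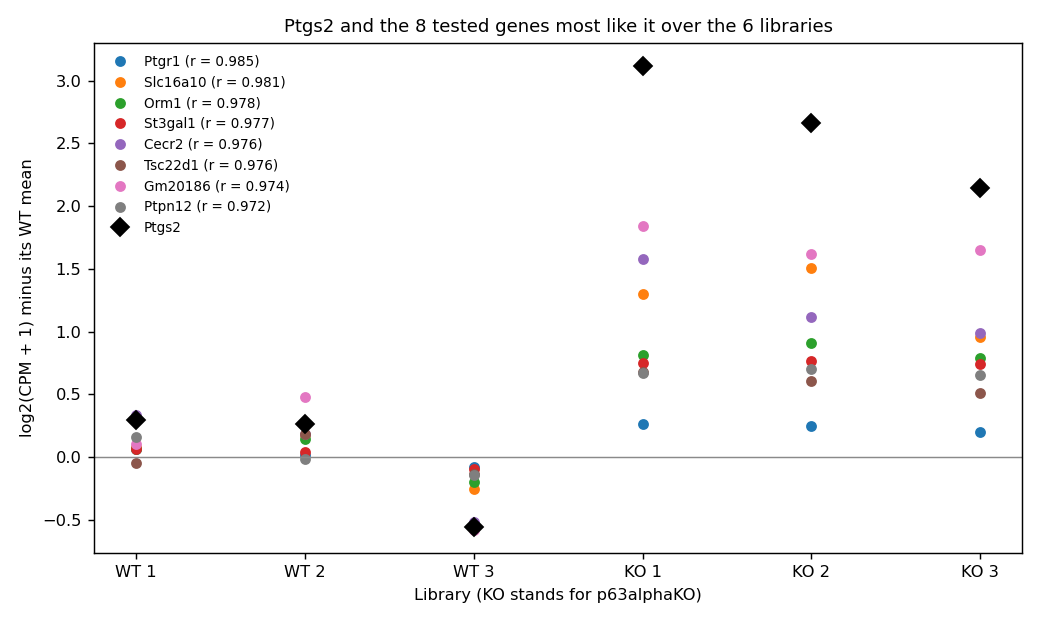
Level of Ptgs2 (black) and of the 8 tested genes most like it, as log2(CPM + 1) minus the mean of the WT libraries, in each library. All 9 genes were higher in each p63alphaKO library than in each WT library, which the choice of genes fixes, and Ptgs2 covered the widest range.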

How the data were processed

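The authors deposited 1 table of normalized values for 6 libraries, and its values show that the deposited unit is CPM. Each column sums to between 999157 and 999401, and 100% of values were whole multiples of the worth of 1 read within 0.0055 CPM, which gave reads and totals. STAR, HTSeq and mm10 are named in the submitters' processing notes. The sources used here give no versions, annotation or strand setting.

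Groups came from the sample titles. limma-trend (limma 3.58.1, R 4.3.3) fitted log2(CPM + 1) by genotype alone, two-sided, over the 7464 genes averaging 10 CPM or more, and calls needed a Benjamini-Hochberg adjusted p under 0.05. edgeR 4.0.16 and DESeq2 1.42.0 on recovered reads, other scalings, pseudocounts and minimums, a replicate block and leaving out each library were alternatives. The fits were tested on simulated data.

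Members and lists were chosen with earlier results of these data known. Named were all 10 members, called genes and the 3 highest tested genes of each list, 8 genes by likeness to Ptgs2, and its neighbours. Of 30386 gene IDs, 99.6% were in GENCODE mouse release 21. On the lists, 2 genes were found by another symbol, and 2 list genes had no row in the table used here. The limit given for a count of 0 covers counting error only, and the limma intervals cover the spread between libraries.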

Additional observations from a re-analysis of the deposited data

How the results depend on the processing

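Of the 9 prostaglandin E2 genes other than Ptgs2, those tested had 0 calls in all 16 alternatives. The tested ones were 5 in most settings, 3 at a minimum mean of 50 CPM, 8 at 1 CPM and 9 without a minimum. Ptgs2 kept a difference between 2.18 and 2.89 in the 15 alternatives that could include it. A minimum mean of 50 CPM left Ptgs2, Pla2g4a and Ptger4 out. The number of called genes, 123 by limma, was 256 with a minimum mean of 1 CPM (77 higher, 179 lower), 36 with a minimum mean of 50 CPM (12 higher, 24 lower) and 317 with DESeq2 (152 higher, 165 lower), and edgeR called 21 higher genes. It ranged from 37 to 186 with 1 library left out (186 without WT replicate 1, and 46, 67 and 37 without p63alphaKO replicates 1, 2 and 3), with 3 to 90 higher and 34 to 96 lower. Upper quartile scaling called 69 higher and 64 lower genes and TMM scaling 48 and 65, against 35 and 88, while the median over the tested genes moved from -0.085 to 0.048 and 0.019. The cause of these shifts was not tested. With 1 library left out, log2 fold changes turned sign for 5 genes without a call. Pla2g4a ran from -0.079 (without WT replicate 1) to 0.36, Ptger4 from -0.067 (without WT replicate 3) to 0.99, and Zfp36l1 from -0.048 (without p63alphaKO replicate 1) to 0.13. Pla2g2f was at -0.027 without WT replicate 2 and -0.028 without p63alphaKO replicate 3, and otherwise up to 0.080. Zfp36 was at -0.22 without WT replicate 3 and -0.065 without p63alphaKO replicate 3, and otherwise up to 0.17. Libraries with the same number shared only the number: their deviations from the group means correlated at -0.023, 0.066 and -0.11. The replicate block gave 127 called genes and 0 of the 5 tested prostaglandin E2 genes other than Ptgs2. Of the 2 called genes in the lists around Ptgs2, Celf2 was called with this block and Fos was not (adjusted p = 0.0567 by limma). At 3 libraries a group the intervals of the tested members are wide, and the 4 genes under the minimum mean had 0 to 36 reads per library.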
